A study of Mus musculus with 6 samples.

Results

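The genes described here are 10 genes of cell adhesion to the basement membrane, the integrin α subunits *Itga2*, *Itga3*, *Itga6* and *Itgav*, the integrin β subunits *Itgb1*, *Itgb4* and *Itgb6*, and the hemidesmosome components *Col17a1*, *Dst* and *Plec*. They were chosen by name, by a rule that applies no threshold to measured values, although earlier results of these data were known. All 10 were found under their own symbol among 23698 rows of the gene tables, none of them joined with another gene. All 10 were also among the 9863 genes that passed the filters on low values, which were an RPKM (counts per kilobase of counted length, scaled by the exon counts of the library) above 1 in both RNA-seq libraries, a mean normalized count over the 3 libraries above 25 and a footprint on the coding sequence (CDS).

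The cells, called SCCc, were cultured squamous cell carcinoma cells, labelled as keratinocytes from newborn (P0) mouse back skin with the genotype HrasG12V; Tgfbr2 fl/fl KO, used at passages 10 to 15. They are an established line kept in low-calcium medium, so they show cultured cells without a basement membrane made by tissue. Files of 1 ribosome profiling library and 2 RNA-seq libraries were used, with 3549555, 10707930 and 14003713 counts on exons, and the 3 long-read samples were not analysed here. Ribosome profiling sequences the mRNA pieces covered by ribosomes, called footprints, and has no replicates here, while RNA-seq measures mRNA abundance. Only 1 condition was analysed here, so the values compare genes within SCCc. Besides SCCc, the long-read samples cover adult epidermal stem cells and wild-type keratinocytes.

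Integrins are receptors made of an α and a β chain that pair in the endoplasmic reticulum before they reach the cell surface. In basal keratinocytes, integrin α6β4 binds laminin-332 and, together with collagen XVII, plectin and the epithelial form of dystonin (BPAG1e), builds the hemidesmosome that ties keratin filaments to the basement membrane. Integrins of the β1 class and αvβ6 instead connect to actin, and αvβ6 is known for activating latent TGF-β and for its presence in wounds and squamous carcinomas.

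The cell type was checked with marker genes. All 6 keratinocyte markers passed the filters. *Krt5*, the keratin of basal cells, had a footprint RPKM of 4640 and RNA-seq RPKMs of 7965 and 9483, and *Krt14*, its partner keratin, had a footprint RPKM of 3028. None of 7 fibroblast markers passed, 6 of them had 0 footprints, and their summed RNA-seq RPKM was 10.2 in replicate 1 and 16.0 in replicate 2. *Col3a1*, the most abundant of them, had 232 and 428 RNA-seq counts, and *Col1a1* and *Col1a2* were also at 0 footprints. Of the immune markers, *Cd68*, a lysosomal protein gene, passed with 36.9 footprints, while *Ptprc*, *Cd3e* and *Lyz2* had 0 footprints. *Lyz2*, a gene of macrophages and neutrophils, had 30.7 and 127 RNA-seq counts, so its RNA differed between the replicates. The melanocyte gene *Pmel* passed on 115 and 155 RNA-seq counts with 2 footprints, and *Dct*, *Mlana* and *Tyr* had 0 footprints. No endothelial or platelet marker passed. Of the markers of differentiated keratinocytes, *Ivl* passed with 364 footprints and RNA-seq RPKMs of 104 and 104, *Krt1* with 95 footprints and *Krt10* with 7 footprints, and *Lor* had 0 footprints. Of all markers of other cell types, those with footprints besides *Cd68* and *Pmel* were *Kdr* (13), *Pdgfra* (10) and *Sox10* (2). The markers thus described keratinocytes, with some differentiation genes expressed, and RNA of fibroblast collagens and of *Lyz2* was present at a low level without footprints.

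The α chains share a feature that the choice of genes did not use. Just inside the membrane, integrin α tails carry glycine, phenylalanine, phenylalanine, lysine and arginine in a row, a stretch that clasps the β tail and holds the receptor inactive. Complete GENCODE M21 reading frames, translated codon by codon, held this stretch in 28 of 21591 genes (0.130%), including 4 of 4 α chains described here and 10 of 14 other α chains. The bases are shown because they mark the chains whose partner ratios follow. Capitals mark the codons of the stretch.
Itga2: aagctcGGCTTCTTCAAAAGAcaatat
Itga3: aagtgcGGCTTCTTCAAGCGAgcccgc
Itga6: aagtgtGGATTCTTTAAGCGCtctagg
Itgav: aggatgGGCTTTTTCAAACGTgtccga
Between 10 and 13 of the 15 capital bases were identical in any pair of these chains. In *Itga3* the stretch was in the transcript Itga3-201 and not in the longest frame, Itga3-203. It ended 20 codons before the end of the *Itga2* frame, 30 in *Itga3*, 47 in *Itga6* and 25 in *Itgav*, so the chains differ in the length of the tail that follows.

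Many β tails carry asparagine, proline, any residue and tyrosine, a pattern that talin binds. This pattern is less specific and was found in 786 genes (3.64%). Among the 10 genes, *Itgb1*, *Itgb6* and the α chain *Itga3* held it. It lay near the end of *Itgb1* at 2 places and of *Itgb6* at 1 place, with capitals marking its codons.
Itgb1: acgggtgaaAATCCTATTTACaagagtgcc
Itgb1: actgtggtcAATCCGAAGTATgagggaaaa
Itgb6: acgggaaccAATCCTCTGTACcgaggttcc
No complete *Itgb4* frame held the pattern, which says only that these codons are not in the annotated frame. The long *Itgb4* tail is known to bind plectin and keratin-linked proteins instead.

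*Itga6*, the laminin-binding chain of hemidesmosomes, lies on chromosome 2 at 71745616 to 71858416 (GRCm38, plus strand). It had 2842 footprints on the CDS, a footprint RPKM of 267, and RNA-seq RPKMs of 233 and 212. *Itga3*, the laminin-332 receptor chain that pairs with *Itgb1*, lies on chromosome 11 at 95044474 to 95076801 (minus strand) and had 2411 footprints, a footprint RPKM of 215, and RNA-seq RPKMs of 159 and 167. These were the most abundant α chains on both scales.

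*Itgav*, the chain of receptors for fibronectin, vitronectin and latent TGF-β, lies on chromosome 2 at 83724397 to 83806916 (plus strand). It had 953 footprints, a footprint RPKM of 85.7, and RNA-seq RPKMs of 25.6 and 24.0. *Itga2*, a collagen receptor chain, lies on chromosome 13 at 114833081 to 114932100 (minus strand) and had 292 footprints, a footprint RPKM of 23.3, 145 and 154 RNA-seq counts on exons, and a mean RNA-seq RPKM of 2.91 ± 0.43 (SD, n = 2). Its RNA stood at percentile 7.01 of the genes that passed and its footprints at percentile 54.9.

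*Itgb1*, the common partner of many α chains, lies on chromosome 8 at 128685654 to 128733200 (plus strand). It had 2582 footprints, a footprint RPKM of 305, and RNA-seq RPKMs of 166 and 147. *Itgb4*, which pairs only with *Itga6*, lies on chromosome 11 at 115974709 to 116008412 (plus strand) and had 4978 footprints, a footprint RPKM of 259, and RNA-seq RPKMs of 237 and 261. The order of these genes therefore differed between the scales, with *Itgb1* above *Itgb4* in footprints and below it in both RNA-seq replicates. *Itgb6*, which pairs only with *Itgav*, lies on chromosome 2 at 60598292 to 60722643 (minus strand) and had 226 footprints, a footprint RPKM of 27.0, and RNA-seq RPKMs of 5.08 and 5.27.

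*Col17a1*, the transmembrane collagen of hemidesmosomes, lies on chromosome 19 at 47646344 to 47692094 (minus strand). It had 5070 footprints, a footprint RPKM of 324, and RNA-seq RPKMs of 946 and 1024. It ranked 46 of 9863 genes by RNA and 504 by footprints. *Dst*, a giant cytolinker whose epithelial form is the plaque protein BPAG1e, lies on chromosome 1 at 33908225 to 34308661 (plus strand) and had 2175 footprints, a footprint RPKM of 22.6, and RNA-seq RPKMs of 121 and 120. *Plec*, the cytolinker that joins *Itgb4* to keratin, lies on chromosome 15 at 76170974 to 76232574 (minus strand) and had 967 footprints, a footprint RPKM of 18.9, and RNA-seq RPKMs of 39.3 and 46.3. All 3 had more RNA than footprints on these scales, whereas each of the integrin genes except *Itgb4* had more footprints than RNA in both replicates.

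**Figure D1:**
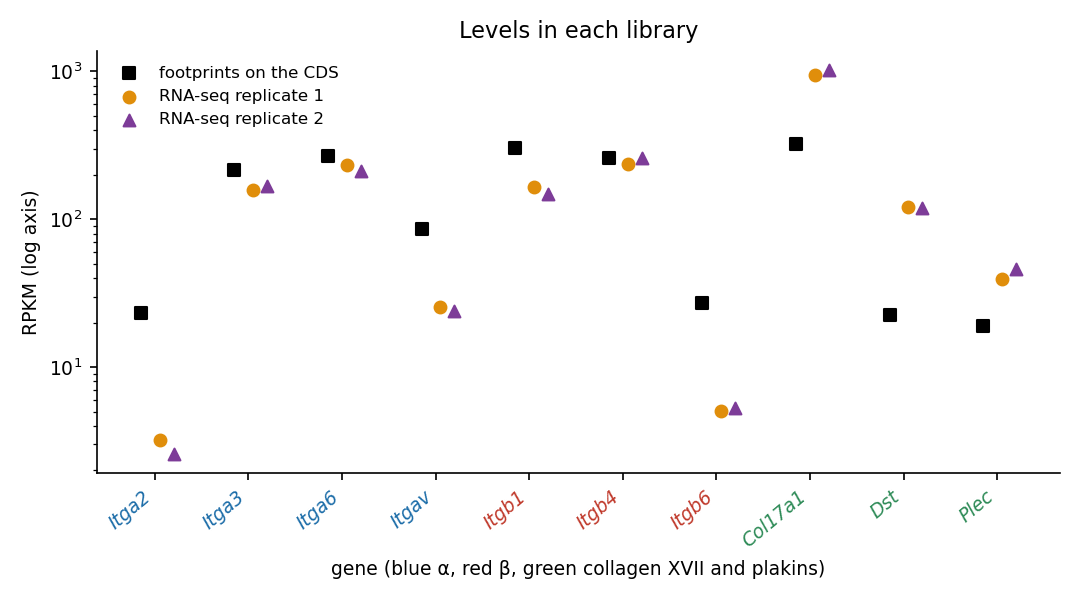
Footprint RPKM on the CDS and RNA-seq RPKM on exons of each gene, on a log axis, with 1 point per library. Footprints lie above both RNA-seq points in *Itga2*, *Itgav* and *Itgb6* and below them in *Col17a1*, *Dst* and *Plec*.

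By footprint RPKM the genes ran from *Col17a1* through *Itgb1*, *Itga6*, *Itgb4*, *Itga3*, *Itgav*, *Itgb6*, *Itga2* and *Dst* to *Plec*. Neighbours were compared by the ratio of their footprint densities with a 95% Clopper-Pearson interval, which covers counting error only. *Itga6* and *Itgb4* did not differ beyond it, with a ratio of 1.03 (0.984 to 1.08). Nor did *Itgb6* and *Itga2*, with a ratio of 1.16 (0.969 to 1.38), or *Itga2* and *Dst*, with a ratio of 1.03 (0.908 to 1.16). By mean RNA-seq RPKM the order was *Col17a1*, *Itgb4*, *Itga6*, *Itga3*, *Itgb1*, *Dst*, *Plec*, *Itgav*, *Itgb6* and *Itga2*. Only *Itga3* and *Itgb1* overlapped between replicates among neighbours in that order. The range was wider in RNA than in footprints, with the highest gene 295-fold above the lowest in replicate 1, 393-fold in replicate 2 and 17.1-fold in footprints. Among the 7 integrin genes alone the range was 73.9-fold and 100-fold in RNA and 13.1-fold in footprints.

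Together the 10 genes held 1.66% and 1.72% of the RNA-seq counts on CDS and 0.703% of the footprints on CDS. These sums rest largely on *Col17a1* and *Dst* in RNA. In replicate 1 they held 44275 and 34307 of the 119613 RNA-seq counts on CDS of the 10 genes. In footprints they held 5070 and 2175 of 22497. Translational efficiency (TE) was taken as footprint RPKM over the mean RNA-seq RPKM, on the log2 scale, with the median of the 9863 genes set to 0. The spread given is the SD over the RNA-seq replicates (n = 2), also for the differences of ratios below. It leaves out the counting error of the single footprint library. The standard error of log2 TE from footprint and RNA-seq counts ran from 0.02 (*Col17a1*) to 0.12 (*Itga2*) over the 10 genes. It was 0.03 for *Dst* and 0.11 for *Itgb6*. A log2 TE above 1 was found for 3 of 10 genes against 20.8% of all genes that passed, and a log2 TE below -1 for 3 of 10 against 21.1%. The median of the 10 genes was -0.01, with genes on both sides, and moved between -0.41 and 0.55 with the counting, filter and reference genes. The genes above 1 were *Itga2*, *Itgav* and *Itgb6*, the other 4 integrin genes lay within the limits, and those below -1 were *Col17a1*, *Dst* and *Plec*. Whether log2 TE differs by role was not tested.

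Among the α chains, log2 TE was 2.66 ± 0.20 for *Itga2* and 1.44 ± 0.05 for *Itgav*. It was 0.06 ± 0.07 for *Itga3* and -0.08 ± 0.09 for *Itga6*. The pair of less abundant chains thus had the higher TE. Among the β chains it was 2.04 ± 0.05 for *Itgb6*, 0.62 ± 0.11 for *Itgb1* and -0.29 ± 0.11 for *Itgb4*. The signs of *Itga3*, *Itga6* and *Itgb4* changed with the processing, and these genes are best read as near the median gene.

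Among the hemidesmosome genes with low values, log2 TE was -1.95 ± 0.09 for *Col17a1*, -2.75 ± 0.003 for *Dst* and -1.52 ± 0.18 for *Plec*. *Dst* stood at percentile 3.25 of all genes and *Col17a1* at percentile 7.55. *Plec* moved within the limit, to -0.71 with footprints counted over exons and -0.79 without division by length. The 2 RNA-seq replicates differed little in these genes, with log2 ratios of replicate 2 to 1 between -0.30 (*Itga2*) and 0.24 (*Plec*), where the SD over all genes that passed was 0.20.

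**Figure D2:**
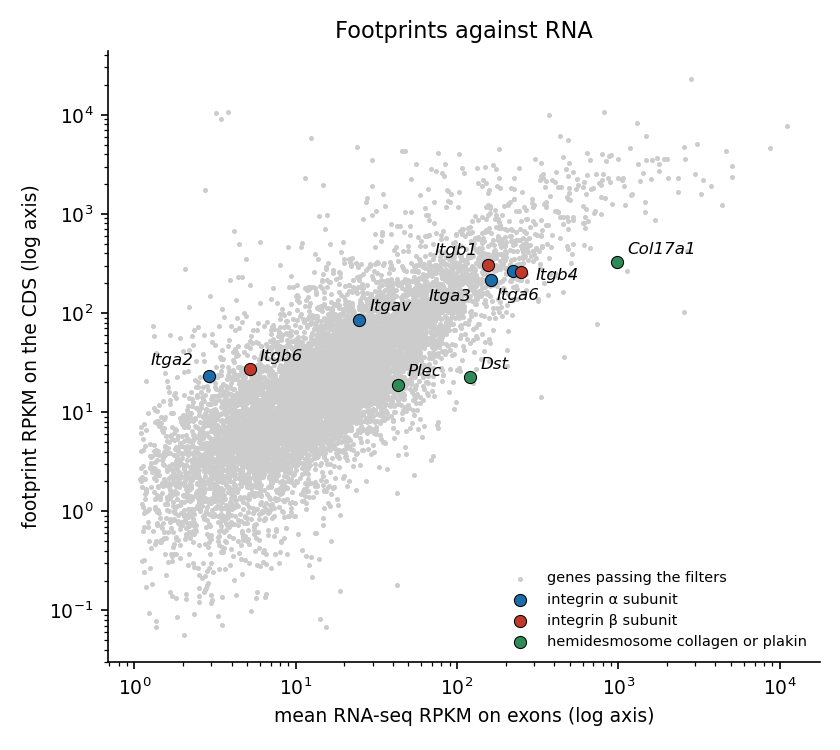
Footprint RPKM on the CDS against mean RNA-seq RPKM on exons, both on log axes, for the 9863 genes that passed (grey) and the 10 genes by role. *Itga2*, *Itgb6* and *Itgav* lie toward the upper edge of the cloud, and *Col17a1* and *Dst* along its lower edge.

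Log2 TE fell with CDS length across all genes, from a median of 1.20 over 1075 genes with a counted CDS under 500 nt to -0.93 over 422 genes of at least 5000 nt. All 10 genes are long, so each was also set against genes of its own length class. *Itga2* (3534 nt) was the highest of 953 genes between 3000 and 5000 nt, where the median was -0.66. *Itgav* (3132 nt) was above 930 of these 953 genes, and *Itgb6* (2361 nt) above 1524 of 1546 genes between 2000 and 3000 nt. The 3 integrin genes with high TE therefore stood further from genes of like length than from all genes.

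The abundant integrin genes lay above their length classes too. *Itgb1* (2387 nt) was above 1315 of 1546 genes, *Itga3* (3159 nt) above 745 and *Itga6* (3000 nt) above 707 of 953 genes. *Itgb4* (5415 nt) was above 320 of 422 genes of at least 5000 nt. *Col17a1* (4410 nt) was above only 119 of 953 genes and *Dst* (27111 nt) above 21 of 422 genes. *Plec* (14402 nt) was above 109 of 422 genes and 0.59 below their median, so its low TE was nearer to that of other long genes.

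**Figure D3:**
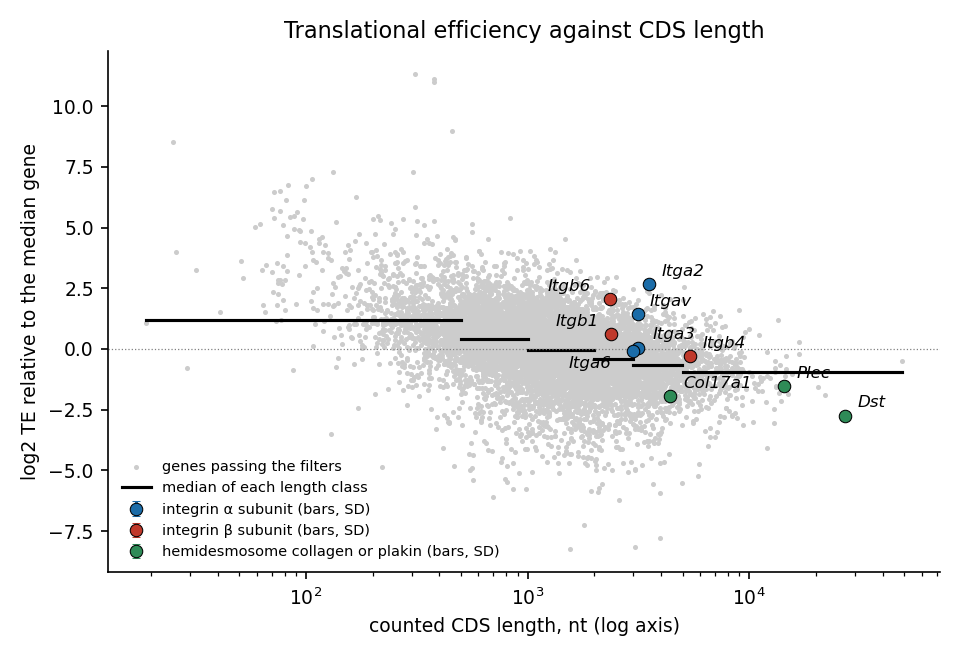
Log2 TE against counted CDS length in nt (log axis) for the genes that passed (grey), with the median of each length class as a black line and the 10 genes by role (bars, SD over 2 RNA-seq replicates, mostly smaller than the symbols). The 7 integrin genes lie above the line of their class and *Col17a1*, *Dst* and *Plec* below it.

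Partner subunits were compared as ratios of their RPKM within each library. *Itga6* to *Itgb4*, the chains of the hemidesmosome integrin, had a ratio of 1.03 (0.984 to 1.08) in footprints and of 0.983 and 0.811 in RNA-seq replicates 1 and 2. Footprints were thus spread evenly over both chains of α6β4, per nt of CDS. The log2 difference of footprint and RNA ratio was 0.21 ± 0.20, about the spread over the RNA-seq replicates. Without division by length it was -0.56, and with footprints over exons -0.50, so its sign depended on the counted length.

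*Itga3* to *Itgb1* had a ratio of 0.706 (0.667 to 0.746) in footprints and of 0.955 and 1.14 in RNA. *Itgb1* therefore had more footprints than *Itga3* while their RNA was about equal. With RNA-seq counted over the CDS the RNA ratios were 0.725 and 0.858, the first of them within the footprint interval, and the log2 difference shrank from -0.56 ± 0.18 to -0.16. *Itga2* to *Itgb1* had a ratio of 0.0764 (0.0674 to 0.0862) in footprints and of 0.0193 and 0.0177 in RNA, a 4.11-fold higher share in footprints. *Itgav* to *Itgb1* had a ratio of 0.281 (0.261 to 0.303) in footprints and of 0.154 and 0.163 in RNA. The minor partners of *Itgb1* thus came closer to it in footprints than in RNA.

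*Itgb1* serves several α chains, so a ratio to 1 of them does not describe its whole set of partners. The summed footprint RPKM of *Itga2*, *Itga3* and *Itgav* was 324 and that of *Itgb1* and *Itgb6* was 332, a ratio of 0.977 (0.930 to 1.03) in a grouping chosen after the values were seen. The same sums in RNA had ratios of 1.10 and 1.27 over exons and of 0.838 and 0.975 over the CDS, so their direction depended on the region counted. *Itga6* was left out of that sum because *Itgb4* had footprints about equal to it, although *Itga6* can also pair with *Itgb1*, and counts per gene do not show which chains paired. *Itga6* to *Itgb1* had a ratio of 0.876 (0.830 to 0.924) in footprints and of 1.41 and 1.44 in RNA, or 1.09 and 1.12 with RNA-seq over the CDS.

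Over all 7 integrin genes, the 4 α chains summed to a footprint RPKM of 591 and the β chains to 591, a ratio of 1.00 (0.967 to 1.04, from the counting error of the sums). In RNA the same ratio was 1.03 and 0.981. The sums were thus balanced for footprints on the CDS and RNA on exons, while the makeup of each differed. *Itgb1* made up 51.6% of the β sum in footprints against 40.6% and 35.6% in RNA, and *Itgb4* made up 43.8% against 58.1% and 63.1%. *Itga6* made up 45.2% of the α sum in footprints against 55.5% and 52.2% in RNA, and *Itgav* 14.5% against 6.09% and 5.92%. The balance depended on the region counted. With footprints over exons the footprint ratio was 0.852, and without division by length 0.835. With RNA-seq over the CDS, the region used for footprints, the RNA ratio was 0.858.

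*Itgav* to *Itgb6*, the chains of the TGF-β-activating integrin, had a ratio of 3.18 (2.75 to 3.69) in footprints and of 5.05 and 4.57 in RNA. Both genes had a log2 TE above 1, and *Itgav* exceeded *Itgb6* on both scales. *Itgav* is also known to pair with other β chains. The log2 difference was -0.60 ± 0.10.

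Hemidesmosome components were compared with *Itgb4*. *Col17a1* to *Itgb4* had a ratio of 1.25 (1.20 to 1.30) in footprints and of 3.99 and 3.92 in RNA. *Itga6*, *Itgb4* and *Col17a1*, the membrane-spanning components, therefore lay within 1.25-fold of each other in footprints, against 4.05-fold and 4.83-fold in RNA, a set chosen after the values were seen. With footprints over exons the span was 1.88-fold. The log2 difference for *Col17a1* was -1.66 ± 0.02, a 3.16-fold lower ratio in footprints.

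The plaque proteins were further from *Itgb4* in footprints than in RNA. *Dst* to *Itgb4* had a ratio of 0.0873 (0.0829 to 0.0918) in footprints and of 0.508 and 0.458 in RNA. *Plec* to *Itgb4* had a ratio of 0.0731 (0.0681 to 0.0783) in footprints and of 0.166 and 0.177 in RNA. *Dst* and *Plec*, both cytolinkers, came nearer to each other in footprints, with a ratio of 1.19 (1.11 to 1.29) against 3.07 and 2.58 in RNA.

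**Figure D4:**
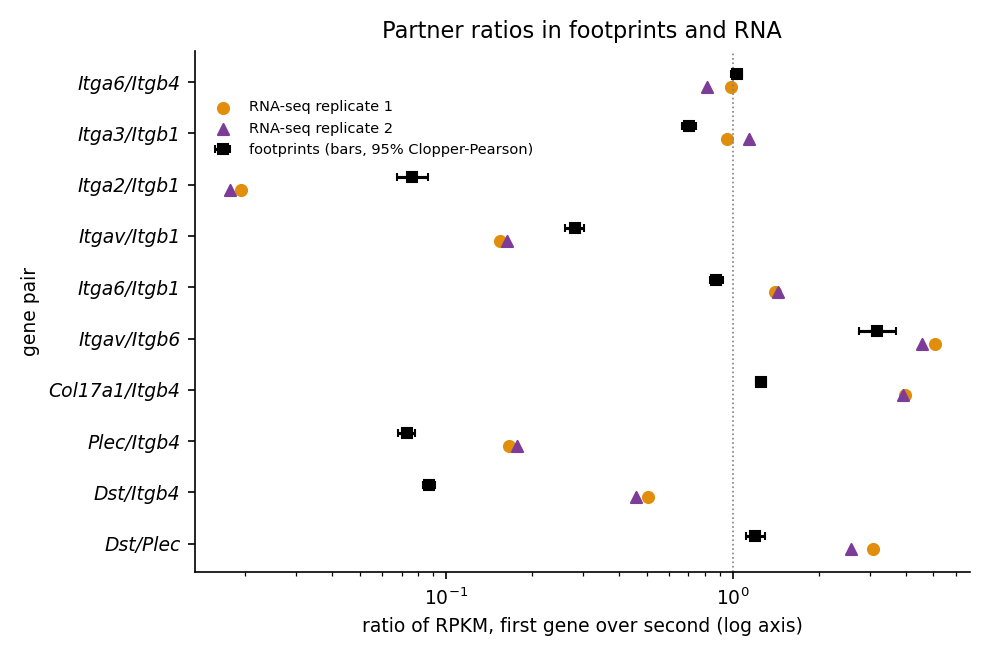
Ratio of RPKM of the first gene over the second for 10 pairs on a log axis, in footprints (squares, bars 95% Clopper-Pearson intervals of counting error) and in each RNA-seq replicate. *Itga6*/*Itgb4* is 1.03 in footprints and 0.983 and 0.811 in RNA, and *Col17a1*/*Itgb4* is 1.25 in footprints and 3.99 and 3.92 in RNA.

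The *Dst* level depends on which isoforms the cells make. GENCODE M21 lists 14 coding transcripts of *Dst*, with a CDS of up to 23151 nt, and the counts used a merged CDS of 27111 nt. If all its footprints came from Dst-213, an isoform with a CDS of 7917 nt, its footprint RPKM would be 77.4 and its ratio to *Itgb4* 0.299, an alternative chosen after the values were seen. On the same CDS its RNA-seq ratios to *Itgb4* would be 1.53 and 1.39, against 0.448 and 0.407 over the merged CDS. Both scales move alike because both are divided by the same length, so this does not test isoform use. Counts per gene do not separate the isoforms, and the RNA value likewise rests on a merged exon length, of 28935 nt. Of the annotated CDS, 92.0% was counted in *Dst*, 97.2% in *Plec*, 88.8% in *Itga6*, 91.4% in *Itga3* and between 96.5% and 100% in the other genes.

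Footprints outside the CDS were given as density per nt, in percent of the density on the CDS of the same gene. On the 5′UTR, none of 9 genes with at least 60 counted nt exceeded its CDS, against 17.4% of 7445 genes. *Col17a1* came closest, with 265 footprints on 241 nt and a density of 95.8% of its CDS, where RNA-seq had 65.5% and 58.1%. *Itga3* followed with 232 footprints on 378 nt and 80.3%, where RNA-seq had 29.9% and 32.4%. The median over all genes was 38.5%, so these 5′UTRs carried more footprints than most. In RNA-seq the medians over all genes were 24.57% and 31.98%. *Col17a1* was thus well above the median in RNA-seq as well, whereas *Itga3* was only slightly above it. The part of RNA-seq density in these footprint values was not tested.

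*Itga6* had 55.9 footprints on its 5′UTR, a density of 29.5%, while RNA-seq reads there reached only 0.567% and 2.17% of the CDS density. *Itgav* was similar, with 26.4% in footprints and 0% and 0.516% in RNA. *Itgb1* had 17.1% in footprints, *Itgb4* 8.23% and *Itgb6* 4.51%, the last on 2.39 footprints. The β chains thus had the lowest 5′UTR footprint densities of these genes. In RNA-seq *Itgav* and *Itga6* were lowest instead, and the β chains lay between 3.61% (*Itgb1*) and 14.9% (*Itgb6*). *Itga2* (63.6%) rested on 5.67 footprints, *Plec* had 38.5%, and the 5′UTR of *Dst*, 47 nt long, held 0 footprints and was not measured.

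On the 3′UTR the median over 8935 genes was 1.63%, and the 7 integrin genes and *Col17a1* lay between 0% and 6.26% (*Itgb4*). *Dst* had 74.9 footprints on 1777 nt, a density of 52.5% of its CDS and percentile 98.9 of all genes. *Plec* had 17 footprints on 1199 nt, 21.1% and percentile 96.3. RNA-seq densities on the 3′UTR were also highest of the 10 in these genes, 135% and 129% for *Dst* and 214% and 188% for *Plec*, where the medians over all genes were 63.5% and 58.2%. Their part in the footprint values was not tested.

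**Figure D5:**
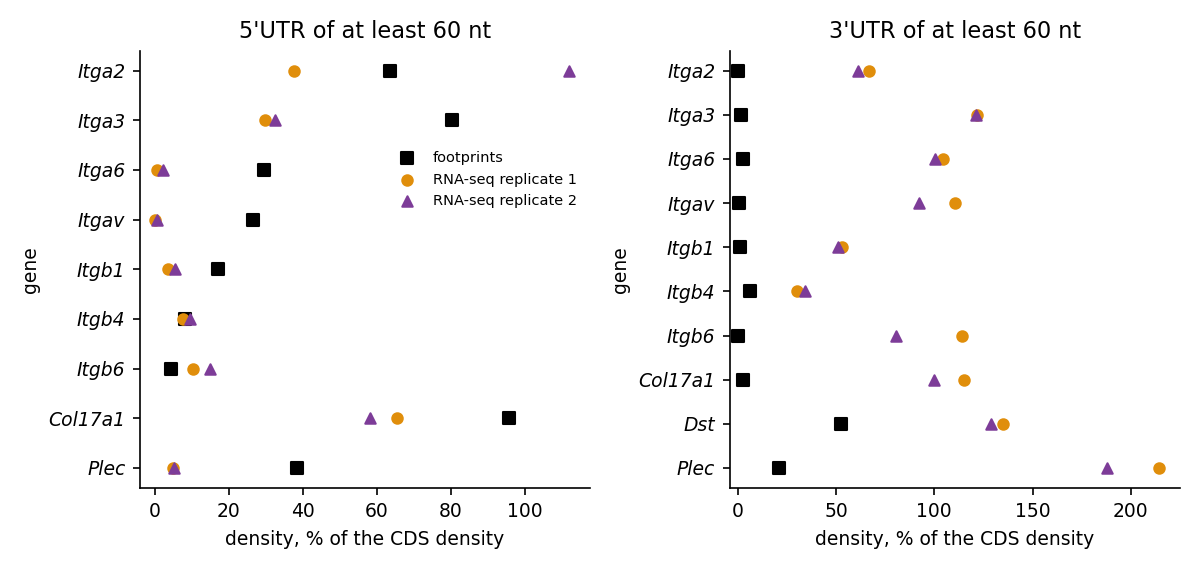
Density on the 5′UTR and on the 3′UTR in percent of the CDS density of the same gene, for footprints and each RNA-seq replicate, in regions of at least 60 nt. *Col17a1* and *Itga3* have the highest footprint densities on the 5′UTR and *Dst* and *Plec* on the 3′UTR.

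Of 19 other integrin subunit genes, 4 passed the filters, of which 0 had a log2 TE above 1 against 20.8% of all genes and 2 below -1 against 21.1%. Of the 19, 14 had 0 footprints and 12 had fewer than 10 RNA-seq counts in both replicates. *Itgb7*, a β chain best known from lymphocytes, had 769 footprints, a footprint RPKM of 89.6, RNA-seq RPKMs of 42.3 and 50.4, and a log2 TE of 0.61 ± 0.19. Its known α partners *Itga4* and *Itgae* had 0 footprints. *Itgb5*, another partner of *Itgav*, had 15.5 footprints, RNA-seq RPKMs of 21.2 and 21.4, and a log2 TE of -3.74 ± 0.02. *Itga5*, the fibronectin receptor chain, had a log2 TE of -0.85 ± 0.22 on 32 footprints, and *Itga10*, a collagen receptor chain, -2.92 ± 0.11 on 7 footprints. Standard errors from counting were larger than these spreads, 0.37 for *Itgb5*, 0.26 for *Itga5* and 0.55 for *Itga10*. *Itgb6* thus had less RNA than *Itgb5* and more footprints. With all 18 α and 8 β chains, the α to β ratio was 0.871 (0.842 to 0.900) in footprints and 0.909 and 0.857 in RNA, and *Itgb7* made up 13.1% of the β footprint sum.

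Integrin adaptors and tetraspanins, link integrins to actin or gather them in the membrane. Of 33 genes 29 passed, with a median log2 TE of 0.11, 4 above 1 against 20.8% of all genes and 4 below -1 against 21.1%. The highest were *Parvb* (1.32), *Parva* (1.31) and the tetraspanin gene *Cd81* (1.28), and among the lowest were *Tns2* (-2.88, listed under its older symbol *Tenc1*, on 7 footprints) and *Flna* (-1.26). By RNA the most abundant were the tetraspanin gene *Cd9* (1.28), the actin crosslinker gene *Actn1* (0.19) and *Tns4* (-0.99), with log2 TE in parentheses.

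Laminin-332 chains, collagen VII and the basal keratins are ligands or anchors of these receptors. Of 7 ligands, keratins and further components of the hemidesmosome, all passed, 4 had a log2 TE below -1 against 21.1% of all genes, 0 were above 1 against 20.8%, and the median was -1.09. The laminin-332 chain genes *Lamb3* (-0.34) and *Lama3* (-0.93) were above that median. *Col7a1*, the anchoring fibril collagen, was the lowest (-2.84), followed by *Erbin* (-1.35, listed as *Erbb2ip*) and *Krt5* (-1.25), and *Krt14* had -1.09. *Lamb3* and *Itga6*, a ligand chain and its receptor chain, had footprint RPKMs of 154 and 267.

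The plakin family, to which *Dst* and *Plec* belong, had mostly low values. Of 7 genes 6 had a log2 TE below -1, against 21.1% of all genes and 48.1% of the 422 genes with a counted CDS of at least 5000 nt, the class that holds all 7. Their median was -2.36, where that of the class was -0.93. *Eppk1* had the lowest value (-3.00), then *Dst* (-2.75) and the desmosomal *Dsp* (-2.63), and *Evpl*, a cornified envelope plakin, was the exception at -0.15. *Ppl*, *Macf1* and *Plec* had -2.36, -1.90 and -1.52. The part of length in these values was not tested.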

How the data were processed

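Per the paper's methods and the submitters' processing notes, the authors trimmed reads with TrimGalore, filtered ribosome profiling reads with Bowtie2 2.4.1, aligned to GRCm38 with STAR 2.6.1 and counted exons and CDS with Plastid. The deposited counts also cover UTRs, whose counting is not given in the sources used here. The annotation release used for counting is not given in the sources used here. The deposited values are estimated counts per gene, which need not be whole numbers. The deposited RPKM values divide them by length and by library totals larger than the exon sum, so RPKM was recomputed from the exon sum with Python 3.11.15, numpy 2.4.6, pandas 2.3.3 and scipy 1.17.1. Counts were rounded for DESeq2 1.42.0 size factors, which entered the mean normalized count, and for edgeR 4.0.16 TMM factors. No test between conditions could be fitted with 1 condition. The TE calculation was tested on simulated data.

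The 10 genes and the lists were chosen with earlier results of these data known. Named genes were the 10 genes, other integrin subunits that passed, any marker gene, and the 3 highest, 3 lowest and 3 most abundant genes of each other list. Length classes, and genes outside that rule, were chosen after their values were seen. Symbols not found were looked up among older symbols in RefSeq. *Flg* was not analysed here. Some genes that the rule covers are not reported here. Reading frames came from GENCODE M21. The alternatives were leaving out either RNA-seq replicate, RNA-seq over the CDS, footprints over exons, no division by length, a pseudocount of 1 RPKM, deposited RPKM, TMM and DESeq2 scaling, other filters, genes of at least 2000 nt as reference, and UTRs of at least 30 nt.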

Additional observations from a re-analysis of the deposited data

How the results depend on the processing

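The values above 1 of *Itga2*, *Itgav* and *Itgb6* and those below -1 of *Col17a1* and *Dst* kept their side under every alternative that gave a value, while *Itga2* did not pass the filters with deposited RPKM. *Plec* left its side in 3 of 12 alternatives, and *Itgb1* passed 1 in 1 of 12. The signs of *Itga3*, *Itga6* and *Itgb4* held in 11, 10 and 9 of 12. The median log2 TE of the 10 genes, -0.01, was 0.27 with RNA-seq over the CDS, 0.39 with footprints over exons, 0.49 without division by length, 0.016 with a pseudocount of 1 RPKM, -0.088 with deposited RPKM over 9 genes, -0.41 for genes of 100 or more counts per library, -0.034 with no filter beyond a count above 0, and 0.55 relative to genes with a CDS of 2000 nt or more. Against a single RNA-seq replicate it lay between -0.02 and -0.01. Reference sets of other genes shift all values alike. The log2 difference of footprint and RNA ratio with RNA-seq over the CDS was -0.16 for *Itga3*/*Itgb1*, -0.48 for *Itgav*/*Itgb6* and -1.52 for *Col17a1*/*Itgb4*. With footprints over exons it was -0.50 for *Itga6*/*Itgb4*, -0.27 for *Itga3*/*Itgb1* and -1.74 for *Col17a1*/*Itgb4*. Without division by length it was -0.56, -0.37 and -1.80 for the same pairs, and with the pseudocount it was -0.43 for *Itgav*/*Itgb6*. The α to β ratio was 0.852 in footprints over exons, 0.835 in footprints not divided by length and 0.858 in RNA-seq over the CDS. The cause of these moves was not tested. TMM and DESeq2 scaling nearly cancel in values centred on the median gene or taken within a library, and say nothing about stability. No paired analysis was possible because only the RNA-seq group has more than 1 library. Depth limits *Itga2* and *Itgb6* most, with 292 and 226 footprints, and further ribosome profiling libraries of the study were not analysed here.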
